A study of Mus musculus with 6 samples.

Results

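The Gimap genes encode GTPases of immunity-associated proteins, a family of GTP-binding proteins made mainly by lymphocytes. They were followed here in naive CD4 T cells that lack or carry Ly-6C, a membrane protein of the Ly6 family. The 8 members, Gimap1 and Gimap3 to Gimap9, were taken by name and not by their values: each is the only symbol of a probe set in the platform annotation, and where a gene has several such probe sets the one with the highest mean over the 6 arrays is kept. Each member turned out to have exactly 1 probe set, no probe set names a member among several symbols, and all 8 of the 8 members were measured among 19938 genes. Ly-6C-negative and Ly-6C-positive cells were sorted from 6-week-old Foxp3-GFP mice on the C57BL/6 strain, using peripheral lymph nodes. Both groups carry the reporter, whose green fluorescence marks regulatory T cells through their transcription factor Foxp3. Both were sorted as CD4+, CD8-, TCRβ+, CD44lo, CD25- and Foxp3- cells, so they share every gate but Ly-6C. Each group has 3 Affymetrix arrays, labelled as biological replicates without saying which or how many mice gave the cells, so p-values measure the spread between these samples. The comparison asks whether transcript levels differ between the groups, and differences are given as the Ly-6C-negative value minus the Ly-6C-positive one.

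Gimap proteins bind and hydrolyse GTP and sit on membranes such as those of lysosomes, mitochondria and the endoplasmic reticulum. Several are needed for mature lymphocytes to persist in the periphery: rats and mice that lack Gimap5 lose peripheral T cells, and mice that lack Gimap1 in lymphocytes lose mature T and B cells. Some mouse members have been reported to bind proteins of the Bcl2 family, which set the threshold of mitochondrial cell death.

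The arrays were alike as a whole. Their median log2 expression lay between 6.25 and 6.29, and arrays correlated with r from 0.993 to 0.998 within a group and from 0.994 to 0.997 between groups across genes, which are not independent replicates. On the first principal component, with 34.6% of the variance, Ly-6C-negative replicate 2 scored 19.9 and Ly-6C-negative replicate 3 scored -10.0, with the other 4 arrays between them. All 12 measured markers of naive CD4 T cells, such as Cd3e, Cd4, Il7r and Ccr7, had a mean at or above that of the median gene, while 0 of 9 B cell markers and 0 of 14 myeloid and dendritic cell markers did. The same held for 3 of 10 NK cell markers, 2 of 3 CD8 T cell markers, 6 of 9 regulatory T cell markers and 3 of 8 endothelial and stromal markers. In all, 29 genes, 0.145% of those tested, passed the threshold of adjusted p 0.05 in limma, a linear model that shares information on spread across genes.

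In RefSeq (GRCm38.p6) the 8 genes form 1 cluster on chromosome 6, in the order Gimap8, Gimap9, Gimap4, Gimap6, Gimap7, Gimap1, Gimap5 and Gimap3. No other protein-coding gene of that table lies between them. The genome build behind the array is not given in the sources used here, so positions are those of RefSeq and not of the probes. Gimap5 is also listed as an older name of Gimap3, and both probe sets were told apart by gene identifier. RefSeq windows from 250 bases before to 50 bases from the start were matched for all 8 members, with a second window for Gimap8. Those of Gimap5 and Gimap7, which lie close together in the cluster, are shown because these members had the largest difference in each direction, a choice made after the values were seen. Capitals mark matches on either strand to GGAAGT, the core bound by ETS factors, TGTGGT, the core bound by RUNX factors, or TTCNNNGAA, the form bound by STAT factors; none of these matches overlap.
Gimap5, chr6:48745947-48746246, + strand: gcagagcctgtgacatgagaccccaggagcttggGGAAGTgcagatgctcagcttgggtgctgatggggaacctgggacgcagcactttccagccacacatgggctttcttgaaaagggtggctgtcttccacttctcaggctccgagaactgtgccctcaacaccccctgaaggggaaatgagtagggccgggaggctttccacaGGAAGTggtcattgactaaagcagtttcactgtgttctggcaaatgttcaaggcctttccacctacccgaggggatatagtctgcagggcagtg
Gimap7, chr6:48718371-48718670, + strand: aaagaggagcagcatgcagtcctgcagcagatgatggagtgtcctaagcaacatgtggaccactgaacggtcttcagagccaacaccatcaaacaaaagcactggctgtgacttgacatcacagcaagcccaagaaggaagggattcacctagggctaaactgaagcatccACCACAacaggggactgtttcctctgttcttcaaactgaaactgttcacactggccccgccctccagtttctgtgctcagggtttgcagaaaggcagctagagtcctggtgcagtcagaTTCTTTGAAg
The Gimap5 window holds 2 ETS matches and none of the others, and the Gimap7 window holds 1 RUNX match and 1 STAT match. Over the family, GGAAGT was found for 4 of 8 genes (Gimap1, Gimap5, Gimap6 and Gimap9), against 23.8% of all 32851 windows. TGTGGT was found for 3 of 8 genes (Gimap1, Gimap4 and Gimap7), against 16.8% of all windows. TTCNNNGAA was found for 4 of 8 genes (Gimap3, Gimap6, Gimap7 and Gimap8), against 8.30% of all windows. TGTTTAC, a form bound by FOXO factors, was found for Gimap3 only, against 3.65% of all windows. Counted by window, like the shares over all windows, the ETS, RUNX, STAT and FOXO forms matched 4, 3, 4 and 1 of the members' 9 windows. These matches describe letters in the windows, and binding was not measured.

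No Gimap transcript passed the test for a difference between Ly-6C-negative and Ly-6C-positive naive CD4 T cells. With limma, 0 of 8 members passed over all genes (adjusted p from 0.701 to 0.999), against 0.145% of all genes, and 1 member, Gimap7, had an unadjusted p under 0.05, against 6.71% of all genes. Blocking on the replicate number also left 0 members past the threshold, against 0.206% of all genes. The members' median difference was -0.0185 on the log2 scale, beside -0.0048 over all genes, with 3 members above 0 and 5 below, where 47.8% of all genes lay above 0. Among genes with a mean at or above that of the median gene, which all 8 members had, 54.4% lay above 0. The median absolute difference was 0.037 for the members, beside 0.062 for all genes and 0.064 for genes at or above the median gene. The spread of the replicates was like that of other genes. The median pooled SD was 0.092 for the members, 0.095 for all genes and 0.101 for genes at or above the median gene. The 95% confidence intervals of the 8 differences, each for its gene alone and not adjusted for the number of genes, lay between -0.38 and 0.31, which is 0.770-fold to 1.24-fold. The smallest absolute difference among the 29 genes past the threshold was 0.43, and every interval of a Gimap gene ended short of it. That value is set by the threshold and by 3 arrays per group, so it does not mark the smallest difference that matters. Smaller differences in the Gimap genes could go uncalled. All 8 members had a mean at or above that of the median gene and were tested under a filter on dim genes too. In these bulk samples fewer cells with a transcript and less transcript per cell cannot be told apart.

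**Figure D1:**
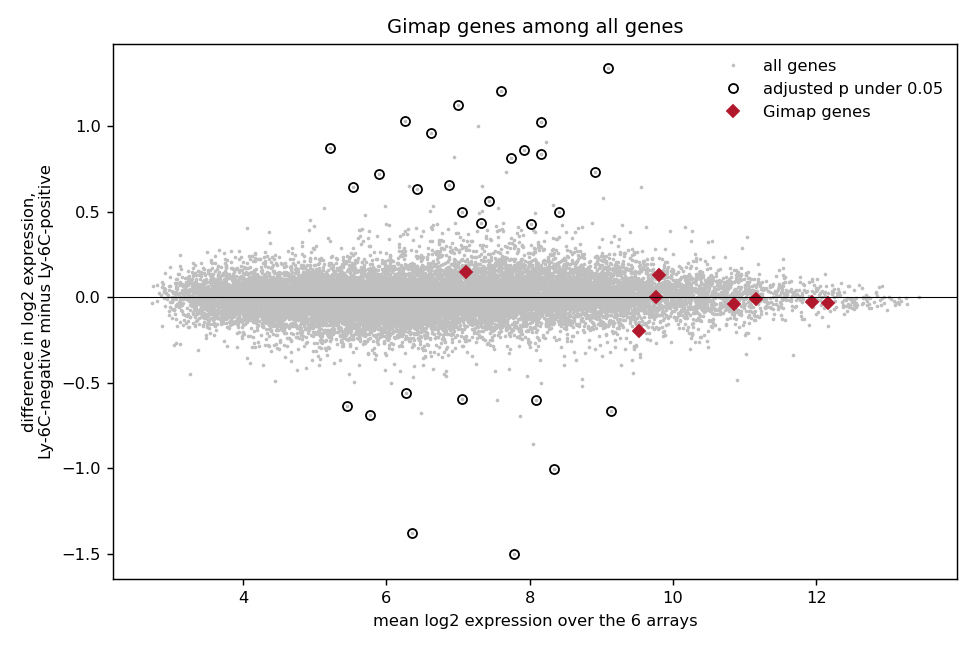
Difference in log2 expression, Ly-6C-negative minus Ly-6C-positive, against the mean log2 expression over the 6 arrays, with 1 point per gene. Diamonds mark the 8 Gimap genes, which lie within 0.20 of 0, and open circles mark the 29 genes past an adjusted p of 0.05, which lie at least 0.43 from 0.

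The members with the most direct link to the survival of resting T cells gave no call. Gimap5, whose loss removes peripheral T cells in rats and mice, had log2 expression of 7.15, 7.11 and 7.30 in Ly-6C-negative replicates 1 to 3, against 7.01, 7.10 and 7.01 in Ly-6C-positive replicates 1 to 3. All Ly-6C-negative arrays lay above all Ly-6C-positive arrays, by as little as 0.011 between the replicates numbered 2. The difference was 0.15 (SE 0.073) with a 95% interval of -0.018 to 0.31, or 1.11-fold (limma adjusted p = 0.795). Without Ly-6C-negative replicate 3 it was 0.090. An absolute difference of this size or more was found in 13.5% of all genes.

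Gimap1, which mice need for mature T and B cells, measured 9.71, 9.87 and 9.71 in Ly-6C-negative cells and 9.69, 9.72 and 9.86 in Ly-6C-positive cells. The groups overlapped almost fully, with 1 high array in each. The difference was 0.0018 with a 95% interval of -0.17 to 0.18, or 0.888-fold to 1.13-fold (limma adjusted p = 0.999).

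Gimap3, the closest mouse relative of Gimap5, has been linked to the sorting of mitochondrial DNA variants in mouse blood cells. It measured 10.86, 10.65 and 10.98 in Ly-6C-negative cells and 10.87, 10.84 and 10.88 in Ly-6C-positive cells. The Ly-6C-negative arrays lay on both sides of the Ly-6C-positive ones, which were within 0.039 of each other. The difference was -0.039 with a 95% interval of -0.23 to 0.16 (limma adjusted p = 0.967). Gimap3 and Gimap5 are related in sequence, and whether their probe sets bind each other's transcripts was not tested.

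Gimap4, which speeds the death of T cells in mice and is not needed for their development, measured 12.15, 11.94 and 12.34 in Ly-6C-negative cells. In Ly-6C-positive cells it measured 12.27, 12.14 and 12.13. Ly-6C-negative arrays held both the lowest and the highest value, and the pooled SD, 0.15, was the largest of the 8 members, with SDs of 0.20 in Ly-6C-negative and 0.079 in Ly-6C-positive cells (n = 3 each). The difference was -0.036 with a 95% interval of -0.26 to 0.19 (limma adjusted p = 0.976).

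Gimap6, which binds an ATG8 protein of the autophagy machinery, measured 11.93, 11.88 and 11.95 in Ly-6C-negative cells and 11.97, 11.94 and 11.93 in Ly-6C-positive cells. Its pooled SD, 0.032, was the smallest of the 8 members, with SDs of 0.040 in Ly-6C-negative and 0.020 in Ly-6C-positive cells (n = 3 each), and the groups overlapped. The difference was -0.027 with a 95% interval of -0.17 to 0.11 (limma adjusted p = 0.969).

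Gimap7, whose human counterpart stimulates GTP hydrolysis by another family member, had the largest absolute difference of the family. It measured 9.38, 9.44 and 9.45 in Ly-6C-negative cells and 9.63, 9.48 and 9.75 in Ly-6C-positive cells. All Ly-6C-negative arrays lay below all Ly-6C-positive arrays, and same-numbered arrays differed by -0.25, -0.0405 and -0.31. The difference was -0.20 with a standard error of 0.080, or 0.872-fold, with a 95% interval of -0.38 to -0.017. This was the only interval of the 8 that did not include 0. It did not pass over all genes (limma adjusted p = 0.701, from an unadjusted p of 0.0350). Without Ly-6C-positive replicate 3 the difference was -0.13. Over all 6 arrays, 5.95% of all genes had an absolute difference at least as large as that of Gimap7.

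Gimap8, a long member with more than one GTPase domain, measured 9.80, 9.80 and 10.02 in Ly-6C-negative cells and 9.72, 9.75 and 9.75 in Ly-6C-positive cells. All Ly-6C-negative arrays lay above all Ly-6C-positive arrays, with replicate 3 the highest, and same-numbered arrays differed by 0.081, 0.041 and 0.27. The difference was 0.13 with a standard error of 0.078 and a 95% interval of -0.042 to 0.31, or 1.10-fold (limma adjusted p = 0.837). Without Ly-6C-negative replicate 3 the difference was 0.057.

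Gimap9 measured 11.25, 11.14 and 11.07 in Ly-6C-negative cells and 11.15, 11.15 and 11.20 in Ly-6C-positive cells. The Ly-6C-negative arrays again lay on both sides of the others. The difference was -0.010 with a 95% interval of -0.17 to 0.15 (limma adjusted p = 0.994).

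**Figure D2:**
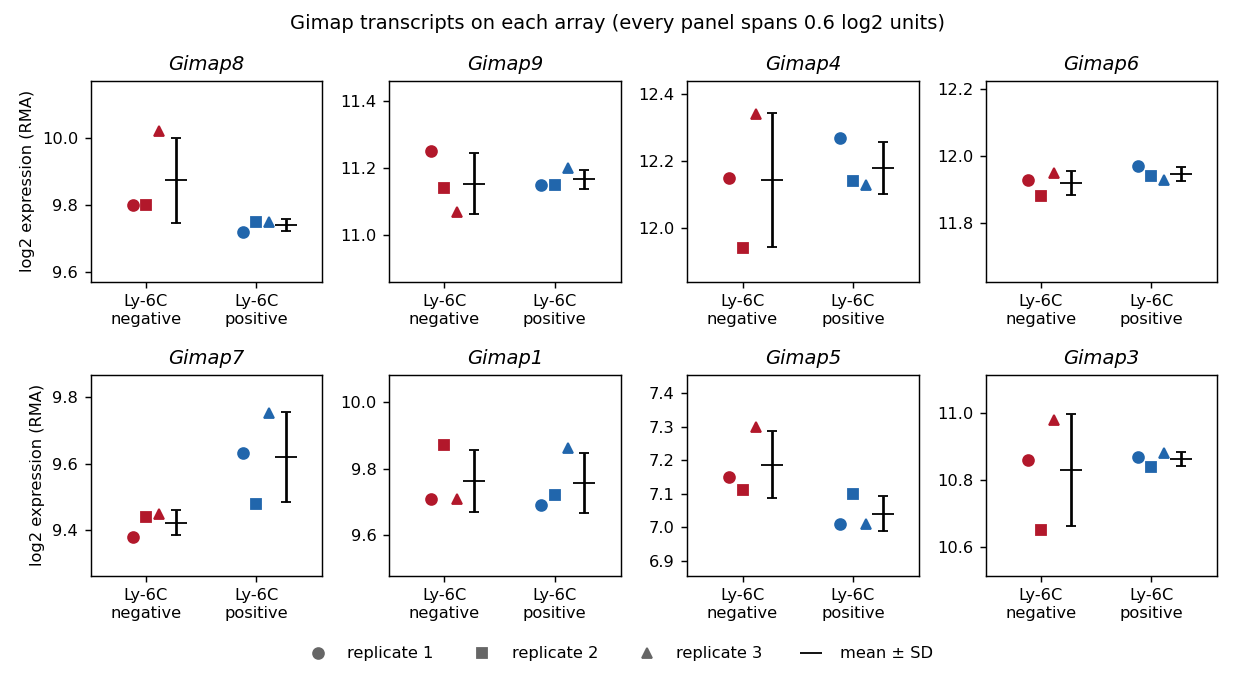
Log2 expression of each Gimap gene on each array, by group, with 1 symbol per replicate and the mean and SD of 3 arrays beside them. Panels follow the order of the genes on the chromosome and each spans 0.6 log2 units around its own midpoint. The groups do not overlap for Gimap5, Gimap7 and Gimap8.

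In all, the groups did not overlap for 3 of 8 members, 2 higher (Gimap5 and Gimap8) and 1 lower (Gimap7) in Ly-6C-negative cells. Over all genes 12.6% did not overlap, 6.12% being higher and 6.50% lower. These 3 did not neighbour each other on the chromosome: Gimap8 is the first gene of the cluster, and Gimap1, with a difference of 0.0018, lies between Gimap7 and Gimap5. An exact permutation test of 3 arrays against 3 cannot give a two-sided p under 0.10 for any of them.

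**Figure D3:**
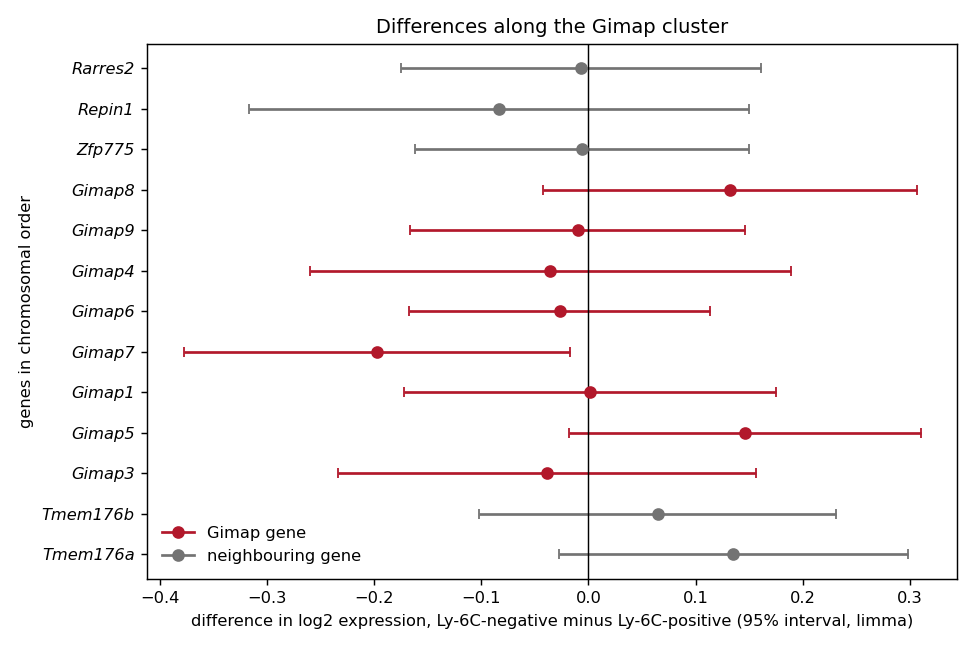
Difference in log2 expression with its 95% interval from limma for the 8 Gimap genes and 5 genes beside them, in the order of the chromosome. Differences of both signs occur along the cluster, and the interval of Gimap7 alone lies on 1 side of 0.

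The members did not share 1 pattern over the arrays. Gimap3, Gimap4 and Gimap6 were each lowest on Ly-6C-negative replicate 2, at -0.20, -0.22 and -0.058 relative to the gene's mean over 6 arrays. Gimap3 and Gimap4 were also highest on Ly-6C-negative replicate 3, at 0.13 and 0.18. Gimap1 went the other way, at 0.11 on Ly-6C-negative replicate 2. Gimap5 and Gimap8 were highest on Ly-6C-negative replicate 3, at 0.18 and 0.22. The arrays that gave Gimap3 and Gimap4 their spread are the ones that lay at the ends of the first principal component, and the part of that in these values was not tested. Without Ly-6C-negative replicate 2, Gimap3 differed by 0.051 and Gimap4 by 0.065, neither past the threshold (limma adjusted p of 0.858 and 0.845).

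**Figure D4:**
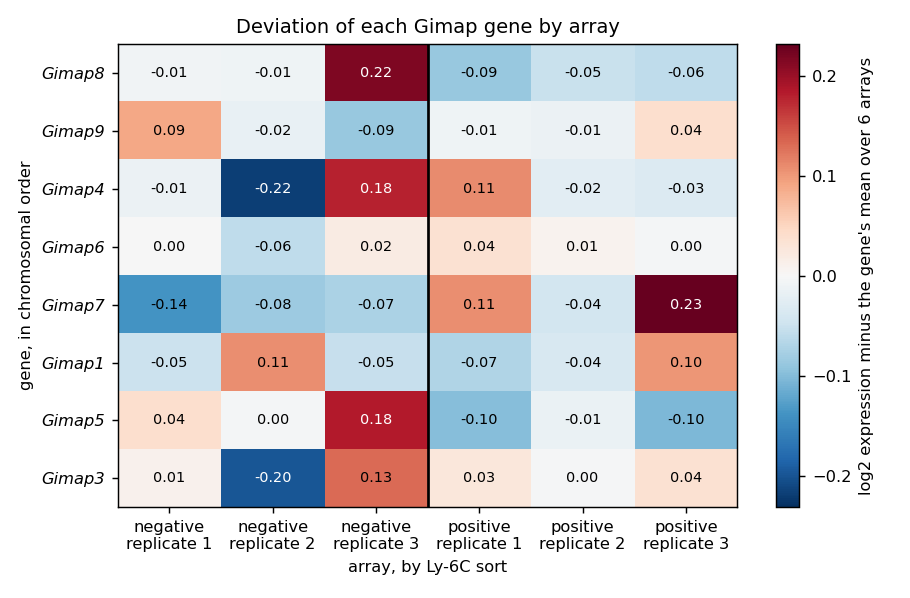
Log2 expression of each Gimap gene on each array minus the gene's mean over the 6 arrays, with genes in the order of the chromosome. Ly-6C-negative replicate 2 holds the lowest values of Gimap3 and Gimap4, at -0.20 and -0.22, and Ly-6C-negative replicate 3 the highest of Gimap8, at 0.22.

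The mean of the 8 centred profiles was -0.0091, -0.0605 and 0.0643 in Ly-6C-negative replicates 1 to 3 and 0.0013, -0.0222 and 0.0262 in Ly-6C-positive replicates 1 to 3. It varied more among Ly-6C-negative arrays than between the groups. The genes most like it, by Pearson's r over the 6 arrays among 9961 genes at or above the median gene, were Ino80d at 0.994, Map3k3 at 0.993, Tgfb1i1 at 0.992, Zmynd8 at 0.991 and Prmt5 at 0.991. Of the 9961 genes, 253 had an r above 0.9 with the mean profile and 221 an r below -0.9. Each r rests on only 6 arrays, and why so many genes follow the profile was not tested. The profile that chose these 5 genes has near-equal group means, so their small differences, from -0.030 to 0.015, follow from the choice.

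The lists of genes that work beside the family held no call, where 0.145% of all genes passed and 6.71% had an unadjusted limma p under 0.05. Of 15 measured genes of the Bcl2 family and the IL-7 receptor pathway, which keep naive T cells alive, 0 passed with limma and 2 had an unadjusted p under 0.05. Their median difference was 0.022. Bcl2, a survival gene of naive T cells downstream of IL-7, measured 10.50, 10.55 and 10.61 in Ly-6C-negative cells and 10.30, 10.42 and 10.31 in Ly-6C-positive cells. Its groups did not overlap, and its difference was 0.21, with an SE of 0.069 (limma adjusted p = 0.578). Stat5b, which encodes a transcription factor that acts below the IL-7 receptor, differed by 0.21 (limma adjusted p = 0.577), and Pmaip1, which encodes the death-promoting protein Noxa, by 0.26 (limma adjusted p = 0.759). Bax, Il2rg, Jak3 and Bcl2a1a were not analysed here.

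Of 14 genes of the ATG8 family and autophagy, the machinery that Gimap6 binds, 0 passed with limma, against 0.145% of all genes. Of these 14, 1, Gabarapl1, had an unadjusted p under 0.05, against 6.71% of all genes. The median difference of the 14 was 0.0027. Gabarapl1, itself an ATG8 gene, differed by 0.29, with an SE of 0.11 (limma adjusted p = 0.675), Atg16l1 by 0.14 and Sqstm1, which encodes an autophagy receptor, by -0.16.

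Of 18 measured genes of quiescence and homing, 0 passed with limma and 3 had an unadjusted p under 0.05, against 0.145% and 6.71% of all genes. The median difference of the 18 was 0.044. Dapl1 measured 10.52, 10.99 and 10.42 in Ly-6C-negative cells and 10.98, 11.23 and 11.17 in Ly-6C-positive cells. Ly-6C-negative replicate 2 was the array that overlapped the Ly-6C-positive ones. The difference was -0.49 (limma adjusted p = 0.477), and without Ly-6C-negative replicate 2 it was -0.66 and passed (limma adjusted p = 0.0250). Bach2, a transcriptional repressor of naive T cells, differed by 0.16 and Btg1, an antiproliferative gene, by 0.16, neither past the threshold (limma adjusted p of 0.724 and 0.742).

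Of 10 genes of GSK3 and calcium signalling, which mouse Gimap5 has been linked to, 0 passed with limma, against 0.145% of all genes. Of these 10, 2 had an unadjusted p under 0.05, against 6.71% of all genes. The median difference of the 10 was 0.12, with 9 of 10 above 0, where 47.8% of all genes were. All 10 had a mean at or above that of the median gene, and of the 9969 such genes 54.4% lay above 0. The list was chosen with earlier results of these data known, and a shift of the list was not tested. Orai1, the pore of the store-operated calcium channel, differed by 0.22 (limma adjusted p = 0.654), Nfatc1, a calcium-responsive transcription factor, by 0.16 (limma adjusted p = 0.739) and Mcu, the mitochondrial calcium channel, by 0.15 (limma adjusted p = 0.813).

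Another family of immune GTPases, those induced by interferon, was set beside the Gimap genes. Of 18 listed genes 7 were not analysed here. Of the 11 measured, 0 passed with limma and 2 had an unadjusted p under 0.05, against 0.145% and 6.71% of all genes. The median difference was -0.099, with 3 of 11 above 0. Among genes at or above the median gene, as all 11 were, 54.4% lay above 0, against 47.8% of all genes. Iigp1 measured 9.43, 9.39 and 9.30 in Ly-6C-negative cells and 9.85, 9.63 and 9.64 in Ly-6C-positive cells. Its groups did not overlap, and the difference was -0.33 (limma adjusted p = 0.357). Mx2 differed by 0.34 and Gbp11 by -0.18 (limma adjusted p of 0.693 and 0.749). The difference between the families was not tested.

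None of the genes beside the cluster passed either. Of 7 measured neighbours 0 passed with limma and 0 had an unadjusted p under 0.05, against 0.145% and 6.71% of all genes. The neighbours' median difference was 0.011. Ahead of Gimap8 in the order of the chromosome, Rarres2 differed by -0.0069, Repin1 by -0.0835 and Zfp775 by -0.0062. Beyond Gimap3, Tmem176b differed by 0.0645 and Tmem176a by 0.14, and the groups did not overlap for Tmem176a (limma adjusted p = 0.813). Zfp467 and Aoc1, farther out, differed by 0.027 and 0.011.

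Of 6 marker lists of other cells, those of regulatory T cells and NK cells held genes past the threshold. Of 9 regulatory T cell markers 4 passed with limma (Ctla4, Ikzf2, Izumo1r and Gpr83), all of them higher in Ly-6C-negative cells, against 0.145% of all genes that passed in either direction. The mean log2 expression per array of all 9 regulatory T cell markers was 7.24 to 7.43 in Ly-6C-negative cells and 6.87 to 6.91 in Ly-6C-positive cells. Of these 9, 8 had a difference above 0. Of 10 NK cell markers 2 passed (Klrd1 and Gzma), both lower in Ly-6C-negative cells, and with the replicate block 3 passed, the perforin gene Prf1 being added at -0.70 (limma adjusted p of 0.00848 with the block and 0.145 without it). Over all genes 0.145% passed without the block and 0.206% with it. The mean log2 expression per array of all 10 NK cell markers was 5.45 to 5.56 in Ly-6C-negative cells and 5.80 to 5.81 in Ly-6C-positive cells. Of these 10, 3 had a difference above 0. Of 12 naive CD4 T cell markers 0 passed with limma and 2 had an unadjusted p under 0.05, against 0.145% and 6.71% of all genes. Among the other lists, of CD8 T cell, B cell, myeloid and dendritic, and endothelial and stromal markers, 0 members passed with limma and 1, 0, 2 and 0 had an unadjusted p under 0.05. These lists held 3, 9, 14 and 8 measured markers. The sort kept CD4+ and TCRβ+ cells without CD25 or Foxp3, and the part of other cells in the Gimap values was not tested.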

How the data were processed

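For 6 arrays, the deposited values are log2 expression of 28853 probe sets. Per the labels' protocols, 50 ng of total RNA was amplified, and biotin was attached to 5 µg of the product. The submitters' processing notes name Partek and RMA without a version or role. RMA equalises the distributions of the arrays, so a change of total RNA per cell cannot be seen. The deposited log2 values, from 2.47 to 13.6, were used as they stand, and precision is limited by the number of arrays.

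Of the probe sets, 21789 had 1 gene symbol, 1621 several and 5443 none listed. Symbols were updated through Entrez ID for 21698, and the brightest probe set per gene left 19938 genes. The groups were compared in R 4.3.3 with limma 3.58.1 (eBayes after lmFit, no covariate, 2-sided, 5.56 prior degrees of freedom), adjusted by Benjamini-Hochberg over all genes at a threshold of 0.05. Figures used matplotlib 3.10.9 in Python 3.11.15.

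Named were all members, up to 3 genes per list with the smallest p, all listed neighbours and the 5 genes most like the family's mean profile; not every one is printed, and genes that passed in marker lists are named too. The members and lists were chosen with earlier results of these data known.

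Replicate numbers are shared by both groups. Deviations of same-numbered arrays from group means correlated with r of 0.129, 0.128 and 0.107 across genes, above the bound of 0.1 set for reading the numbers as pairs. Across probe sets r was 0.12, 0.136 and 0.0856 for replicates 1 to 3, so replicate 3 fell under that bound. Arrays with different numbers gave r from -0.107 to -0.0114 across genes. As group means were subtracted, positive r at same numbers pushes these to negative values, so they add no separate support for pairing. The pairing is read from the values across genes and not stated by the labels, so it remains uncertain.

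The alternatives tried were subtraction of array medians, a second quantile normalization, a filter on dim genes, every probe set, the mean of probe sets, trend and robust eBayes, array weights, the replicate block, each array left out and a threshold of 0.1. The same fit was run on simulated data made from the gene means and spreads of the real arrays, with independent noise for each gene. Of added log2 differences of 0.25, 0.5, 1 and 1.5, it recovered 4.2%, 62.3%, 94.5% and 99%, and 3.7% of its calls were false. Noise shared between genes was not simulated, so these shares need not hold for the real arrays. A difference of the size seen for the Gimap genes would thus mostly go uncalled.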

Additional observations from a re-analysis of the deposited data

How the results depend on the processing

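All alternatives here were planned. In the 14 alternative fits 0 of 8 Gimap genes passed, with limma adjusted p from 0.503 to 1, and at a threshold of 0.1 the count was 0 too. Gimap5, Gimap6, Gimap7 and Gimap8 kept their sign in all 14, and 13 of 112 member values, those of Gimap1, Gimap3, Gimap4 and Gimap9, turned sign, none of them a called difference. Gimap1 differed by -0.0091 after a second quantile normalization and by -0.015 with array weights. Gimap9 differed by 4.44e-05 after a second quantile normalization, by 0.011 after subtraction of array medians and by 0.021 with array weights. With each array left out, Gimap1 ran from -0.0514 to 0.0539, Gimap3 from -0.114 to 0.0513, Gimap4 from -0.134 to 0.0648 and Gimap9 from -0.0579 to 0.0310, while Gimap5 ran from 0.0903 to 0.185, Gimap6 from -0.0433 to -0.0043, Gimap7 from -0.268 to -0.131 and Gimap8 from 0.0574 to 0.170; the cause was not tested. The members' median ran from -0.035 to 0.024 and the number above 0 from 2 to 4.

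The count over all genes, 29, was 45 of 28853 with every probe set, 54 with array weights and 5 to 47 with an array left out: 5 and 47 without Ly-6C-negative replicates 1 and 2, and 8, 6 and 8 without Ly-6C-positive replicates 1, 2 and 3. The count over the lists of working partners, the interferon-induced GTPases and neighbours was 0, and 0 to 1 with an array left out, Dapl1 passing without Ly-6C-negative replicate 2. The replicate block gave 41 genes in place of 29 and changed no call of a Gimap gene or of these lists.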
